A study of Mus musculus with 24 samples.

Results

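The last hours of the light phase were examined in mouse hearts by setting 4 hearts taken at ZT11 against 4 hearts taken at ZT07, which are 8 of the 24 hearts in the series. Zeitgeber time (ZT) is the number of hours since lights on, so ZT07 lies in the middle of the light phase and ZT11 just before lights off. All hearts, labelled as myocardium, came from male mice of 8 weeks, homozygous for the Clock delta 19 allele (Clock delta 19/delta 19) and kept under 12 h of light and 12 h of darkness. They were collected every 4 h, at 6 time points, with 4 hearts, labelled as biological replicates, for each, and every heart was read on 1 single-colour Affymetrix array from 500 ng of total RNA. Both groups carry the same homozygous mutation and no wild-type heart was used here, so the step describes mutant hearts and says nothing about what the mutation does. The labels give no treatment and do not say when the animals last ate.

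CLOCK and its partner ARNTL (BMAL1) bind E-boxes in DNA and drive the genes of their own repressors, the period and cryptochrome proteins, as well as the REV-ERB and PAR bZIP regulators. The delta 19 allele gives a CLOCK protein that lacks the part of its transactivation domain encoded by an exon. This protein still binds its partner but activates poorly. In the heart the clock is known to time fuel use, contractile protein turnover and electrical activity. The end of the light phase is when a nocturnal mouse is about to become active and to feed.

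Values were deposited in log form, read here as log2, and each array feature had been centred on its own median over the 24 arrays. A value of 0 is therefore the middle of the 24 hearts for that gene, a value is no level, and genes cannot be ranked by abundance. The log base is not given in the sources used here; with another base the differences would be scaled by 1 constant and the adjusted p-values would stay as they are. The difference for a gene is the mean of the 4 ZT11 hearts minus the mean of the 4 ZT07 hearts, with its standard error (SE) from a limma fit of all 24 hearts. A gene passed at a Benjamini-Hochberg adjusted p under 0.05 over the 22180 genes tested. The hearts are bulk tissue, in which fewer cells of a type and less RNA per cell cannot be told apart.

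By measures over the whole array, 1 heart stood apart before any comparison. ZT11 replicate 1 had an SD over features of 0.153, against 0.0951 to 0.134 in the other 23 hearts, and 16.2% of genes in it lay outside the range of all other hearts, against 6.16% to 12.4%. It also had the lowest array weight of the 24, 0.542. The tissue label was checked through the spacing of the deposited numbers, which keeps a trace of whether a feature lay between 8 and 16 before centring. By that trace 9 of 10 cardiomyocyte markers (Myh6, Actc1, Tnnt2, Tnni3, Ryr2, Pln, Mb, Ckm and Nppa) lay in the upper range, against 1.86% of all genes and none of the 10 macrophage, 6 T cell or 5 lung markers. Other lists held some there: 3 of 10 smooth muscle and pericyte, 2 of 10 endothelial, 1 of 10 fibroblast and 1 of 8 adipocyte markers. The atrial list held 1 of 7 (Nppa) and the skeletal muscle list 1 of 10 (Ckm), both also cardiomyocyte markers here. Of 2 further versions of this check, chosen after the first count was seen, 1 again gave 9 of the 10 cardiomyocyte markers and the other 7. The macrophage, T cell and lung lists held no gene there in either. In the version with 7, 8981 features had too few values near their median to be judged. A gene is counted only where its numbers keep the trace, so one not counted is not shown to have lain below 8. The 1.86% is therefore the share of genes with the trace, not of all genes in the upper range.

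Between ZT07 and ZT11, 43 genes passed the test, 0.194% of those tested. Of these, 14 were higher at ZT11 (0.0631% of genes) and 29 were lower (0.131%). The rises ran from 0.23 to 0.69 and the falls from -0.21 to -0.51 on the log2 scale, and 2 genes reached 1.5-fold. At an unadjusted p under 0.05 there were 2489 genes (11.2%), 897 higher (4.04%) and 1592 lower (7.18%), where 1109 would be the number by chance alone. The same fit called 0 genes for the step before (ZT03 to ZT07) and 0 for the step after (ZT11 to ZT15), with 802 and 1603 genes at an unadjusted p under 0.05; these steps share hearts with this one, and a difference between their counts was not tested. When all 34351 features were tested singly, with or without a symbol, 3 passed, 1 higher and 2 lower. All 3 lacked exactly 1 gene symbol, so no feature of the 43 genes passed in that fit.

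The 4 ZT07 and 4 ZT11 hearts did not overlap for 40 of the 43 genes, against 5.89% of all genes (14 of 14 higher genes against 2.14%, and 26 of 29 lower genes against 3.75%); the 43 were chosen on these same hearts, so this is a description. The 3 exceptions, Arhgap20, Pnpla8 and Usp15, were all lower at ZT11. The number of genes called moved with each heart left out: 21 without ZT07 replicate 1, 23 without ZT07 replicate 2, 3 without ZT07 replicate 3 and 2 without ZT07 replicate 4. It was 3 without ZT11 replicate 1, 2 without ZT11 replicate 2, 3 without ZT11 replicate 3 and 322 without ZT11 replicate 4. All 43 genes kept their direction in each of these 8 fits, and 1 gene, Cryab, passed in all of them. The 43 were chosen on these same hearts, so the kept direction is a description. Where the groups do not overlap, leaving out 1 heart cannot turn it. ZT11 replicate 1 was the heart farthest from the ZT07 hearts for 19 of the 29 lower genes and 5 of the 14 higher ones, while ZT11 replicate 4 was the nearest for 18 and 7. Without ZT11 replicate 1 the differences of the 43 genes were 0.751 to 1.18 times those with all hearts. Its part in the result beyond these values was not tested.

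**Figure D1:**
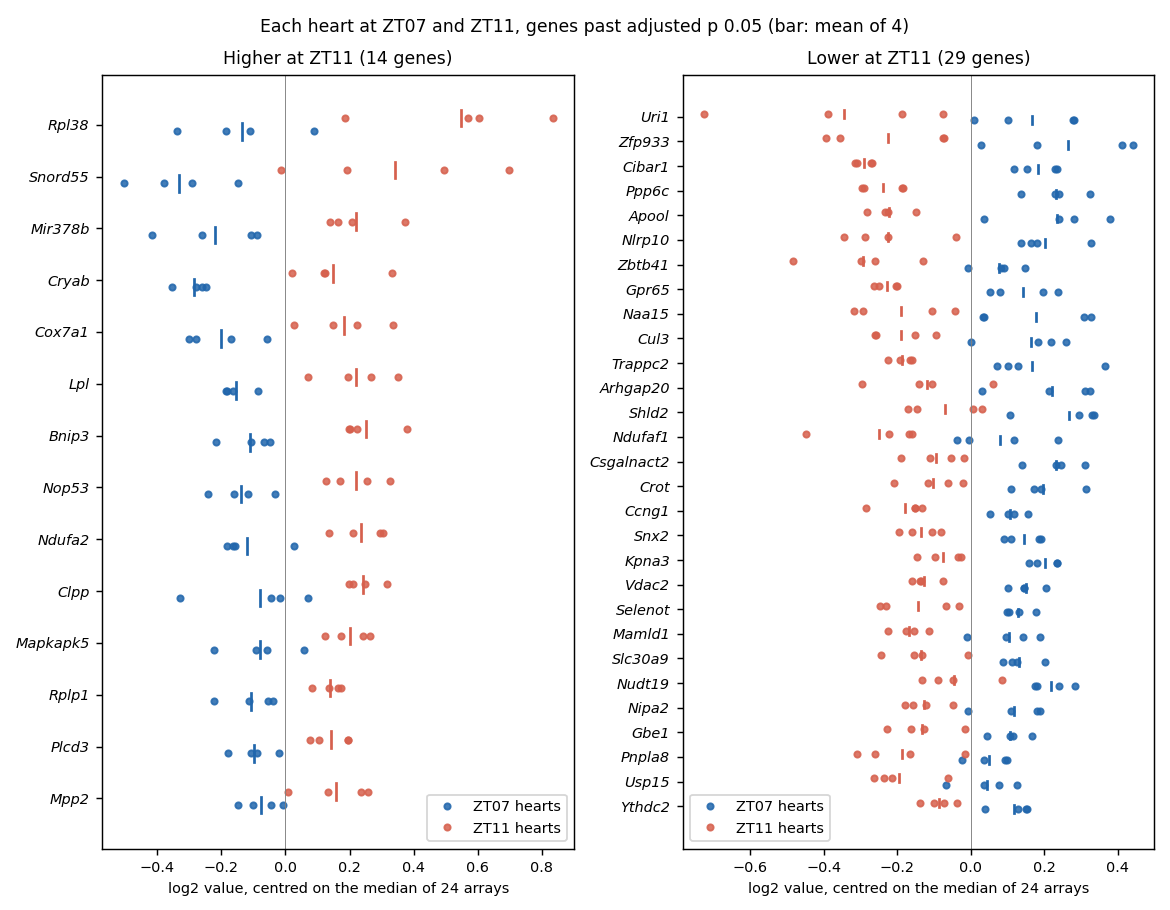
Each point is the centred log2 value of 1 heart at ZT07 (blue) or ZT11 (red), and each short bar the mean of 4 hearts, for the 14 genes higher (left) and the 29 lower (right) at ZT11 at an adjusted p under 0.05. The 2 colours do not overlap for 40 of the 43 genes, and Rpl38 and Snord55 lie farthest apart among the higher genes.

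**Figure D2:**
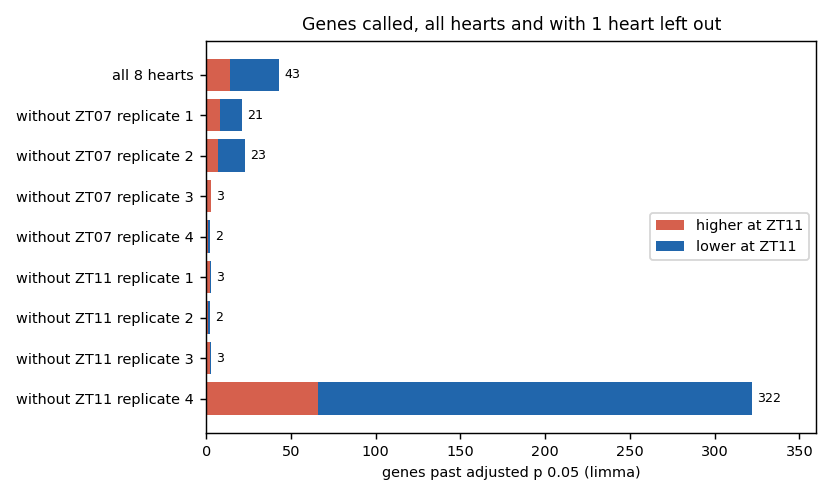
Bars give the number of genes at an adjusted p under 0.05 (limma), higher (red) and lower (blue) at ZT11, with all 8 hearts and with each heart left out in turn. The count is 43 with all hearts, 2 to 23 without 7 of the hearts, and 322 without ZT11 replicate 4.

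The promoters of the called genes were searched, on both strands and over the 250 bases before the start, for 5 motifs that the clock, heat shock factor and glucocorticoid receptor are known to use. Of the 43 called genes, 30 matched an entry of the RefSeq promoter table (GRCm38.p6). The E-box CACGTG was found in 3 of the 30 (Bnip3, Nipa2 and Zfp933), against 6.02% of 32851 promoters, and the core of the glucocorticoid response element, AGAACA or TGTTCT on the other strand, in 1 (Clpp), against 16.1%. The heat shock element GAANNTTC (6.69% of promoters), the D-box TTANGTAA (2.06%) and the RORE TAGGTCA (2.23%) were found in 0 of the 30. A called gene counted if any of its entries held the motif, while the percentages are shares of single entries. A gene with several entries has more chances to hold a motif, so the 2 are not like for like. Overlap of one motif with another was not assessed. 3 promoters are shown because they are those of largest rises or falls that hold a searched motif, which is in capitals. Where a gene has several entries, the first that holds a motif is shown. A match is a description of the letters. The 250 bases are chr7:138909507-138909756, minus strand, for Bnip3, with the E-box starting 108 bases before the start, chr17:56990014-56990263, plus strand, for Clpp, with the core at 22 bases, and chr4:147848419-147848668, minus strand, for Zfp933, with the E-box at 110 bases.
Bnip3: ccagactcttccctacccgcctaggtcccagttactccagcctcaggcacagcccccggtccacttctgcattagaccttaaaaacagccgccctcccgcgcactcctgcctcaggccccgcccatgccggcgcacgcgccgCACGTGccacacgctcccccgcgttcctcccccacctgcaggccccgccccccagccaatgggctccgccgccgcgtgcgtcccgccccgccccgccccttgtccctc
Clpp: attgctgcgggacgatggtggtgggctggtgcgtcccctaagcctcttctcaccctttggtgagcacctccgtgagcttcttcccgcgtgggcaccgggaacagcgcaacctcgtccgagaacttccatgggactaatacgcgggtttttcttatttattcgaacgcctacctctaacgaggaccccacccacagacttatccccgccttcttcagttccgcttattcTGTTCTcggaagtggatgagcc
Zfp933: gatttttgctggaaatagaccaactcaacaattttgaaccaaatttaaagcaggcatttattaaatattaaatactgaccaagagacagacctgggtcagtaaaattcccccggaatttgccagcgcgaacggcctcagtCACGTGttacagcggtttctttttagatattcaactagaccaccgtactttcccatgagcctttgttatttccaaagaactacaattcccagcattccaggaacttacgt
Bnip3 and Clpp rose and Zfp933 fell, so the 2 promoters that share an E-box in this group belong to genes that moved in opposite directions.

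Among the higher genes, the smallest p of the step belonged to Cryab, which encodes alphaB-crystallin, a small heat shock protein abundant in heart muscle that keeps desmin and other filament proteins from aggregating. Cryab stood at -0.28, -0.25, -0.26 and -0.35 in ZT07 replicates 1 to 4 and at 0.33, 0.12, 0.12 and 0.020 in ZT11 replicates 1 to 4. All 4 ZT07 hearts were low and close together, and the ZT11 hearts, all above them, were spread by the high replicate 1. The difference was 0.43 ± 0.056 (SE), with an adjusted p of 0.00381 in limma. The array holds 2 features for Cryab, and they differed by 0.23 and 0.64, in the same direction but not by the same amount. Of the 29 measured genes in the list of heat shock proteins and chaperones, Cryab was the 1 called, 3 were higher and 3 lower at an unadjusted p under 0.05 (against 4.04% of all genes higher and 7.18% lower), and the median of the list was -0.04 against 0.0012 over all genes. Hspb7, another small heat shock protein of the heart, had the next smallest p in the list and lay on the other side, at -0.30 ± 0.10 with an adjusted p of 0.204, and with overlapping groups. Hspb1 (HSP27), chosen after its values were seen, differed by 0.15 ± 0.054 with an adjusted p of 0.254.

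Lpl also rose; it encodes lipoprotein lipase, the enzyme that frees fatty acids from circulating triglyceride for uptake by the heart. Its values were -0.17, -0.086, -0.19 and -0.18 in the ZT07 hearts and 0.35, 0.27, 0.19 and 0.071 in the ZT11 hearts, in the order of the replicates. The lowest ZT11 heart, replicate 4, was still above every ZT07 heart. The rise was 0.38 ± 0.063, with an adjusted p of 0.0369 in limma, and its 2 features rose by 0.24 and 0.52. It was the 1 called gene among 16 measured genes of lipid storage and lipolysis; 4 members were higher and 1 lower at an unadjusted p under 0.05 (against 4.04% of all genes higher and 7.18% lower), and 12 of the 16 differences were above 0, with a median of 0.09. Pnpla2, the adipose triglyceride lipase that starts the breakdown of stored triglyceride, had 4 tightly grouped hearts at each time, -0.11, -0.086, -0.057 and -0.090 at ZT07 and 0.22, 0.18, 0.23 and 0.25 at ZT11. Its difference of 0.30 ± 0.083 had an adjusted p of 0.114 and did not pass.

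No gene of the list of PPAR alpha and fasting targets was called among 23 measured, and 1 was higher and 2 lower at an unadjusted p under 0.05 (against 4.04% of all genes higher and 7.18% lower). The 2 with the smallest p lay in opposite directions: Pdk2, a kinase that restrains pyruvate dehydrogenase, differed by 0.30 ± 0.10 (adjusted p 0.2), and Cd36, the fatty acid transporter, by -0.13 ± 0.035 (adjusted p 0.107).

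Both called genes of the respiratory chain list rose. Cox7a1, the heart and skeletal muscle form of a cytochrome c oxidase subunit, had values of -0.059, -0.17, -0.30 and -0.28 at ZT07 and 0.34, 0.15, 0.22 and 0.025 at ZT11. Ndufa2, an accessory subunit of complex I, had 0.027, -0.16, -0.16 and -0.18 and 0.21, 0.31, 0.29 and 0.14, and its ZT07 replicate 1 stood above the other 3. The differences were 0.39 ± 0.067 for Cox7a1 and 0.36 ± 0.073 for Ndufa2, with adjusted p of 0.0369 and 0.0496 in limma. These 2 did not stand for the whole chain: of 45 measured members, 25 differences were above 0 and 20 below, and the median was 0.01. At an unadjusted p under 0.05, 9 of the 45 were higher and 4 lower, against 4.04% of all genes higher and 7.18% lower.

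2 other mitochondrial genes rose. Bnip3, a protein of the outer mitochondrial membrane that recruits the autophagy machinery, stood at -0.11, -0.048, -0.22 and -0.067 at ZT07 and 0.20, 0.38, 0.22 and 0.20 at ZT11, with ZT11 replicate 2 above the other 3. It differed by 0.36 ± 0.074 (adjusted p 0.0496) and belongs to both the autophagy and the hypoxia list. In each it was the 1 called gene, among 22 and 17 measured, against 0.194% of all genes called. At an unadjusted p under 0.05 in limma, the autophagy list had 2 higher and 2 lower and the hypoxia list 3 higher and 1 lower. Over all genes, 4.04% were higher and 7.18% lower at that threshold. Clpp, the protease of the mitochondrial matrix, had -0.044, -0.33, 0.070 and -0.016 at ZT07 and 0.25, 0.32, 0.20 and 0.21 at ZT11. The ZT11 hearts of Clpp were close together and the ZT07 hearts were spread by a low replicate 2; the difference was 0.32 ± 0.059 (adjusted p 0.0369). The autophagy list had a median of 0.01, and Atg3, the enzyme that attaches LC3 to lipid, was at -0.21 ± 0.062 (adjusted p 0.14). In the hypoxia list the median was 0.01 as well, and Hif1a, the oxygen-regulated subunit of the HIF-1 factor, was at -0.13 ± 0.036 (adjusted p 0.112), with 1 feature at -0.26 and the other at 0.00.

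The 2 largest rises were those of Rpl38 and Snord55. Rpl38, a protein of the large ribosomal subunit, had 0.089, -0.19, -0.11 and -0.34 at ZT07 and 0.18, 0.83, 0.57 and 0.60 at ZT11, with ZT11 replicate 1 below the other 3 ZT11 hearts. Its mean went from -0.14 ± 0.18 (SD, n = 4) to 0.55 ± 0.27 (SD, n = 4), a difference of 0.69 ± 0.12 with an adjusted p of 0.0369 in limma. Snord55, a small nucleolar RNA of the class that guides methylation of ribosomal RNA, had -0.15, -0.29, -0.50 and -0.38 and 0.70, 0.49, 0.19 and -0.014. Its ZT11 hearts were the most spread of the higher genes, and the lowest of them, replicate 4, lay above the highest ZT07 heart. The difference was 0.67 ± 0.12 (adjusted p 0.0369). Whether the Snord55 feature read the small nucleolar RNA itself or a host RNA is not given in the sources used here.

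Rplp1, of the acidic stalk of the ribosome, and Nop53, a nucleolar factor of large subunit assembly, also rose. Rplp1 had -0.038, -0.055, -0.22 and -0.11 at ZT07 and 0.17, 0.14, 0.16 and 0.081 at ZT11, a difference of 0.25 ± 0.039 (adjusted p 0.033), and its 2 features differed by 0.18 and 0.31. Nop53 had -0.032, -0.16, -0.12 and -0.24 and 0.13, 0.25, 0.33 and 0.17, a difference of 0.36 ± 0.074 (adjusted p 0.0496). Over all 64 ribosomal protein genes, a list drawn up after these genes had been seen, 2 were called, 10 were higher and 3 lower at an unadjusted p under 0.05, and the median was 0.04. Over 73 small nucleolar RNAs, listed in the same way, 1 was called, 13 were higher and 5 lower, and the median was 0.04. Over all genes, 4.04% were higher and 7.18% lower at this threshold, and the median was 0.0012.

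1 microRNA rose, Mir378b. Its mature sequence is shown because the seed, the bases that pair with target messages, is what sets its possible targets; the seed, bases 2 to 8, is in capitals. It is taken from RefSeq on GRCm38.p6, chr11:88352839-88352858, plus strand.
mmu-miR-378b: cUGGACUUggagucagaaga
The hearts stood at -0.090, -0.26, -0.11 and -0.42 at ZT07 and 0.14, 0.21, 0.37 and 0.16 at ZT11, and the difference was 0.44 ± 0.091 (adjusted p 0.0496). The array was labelled from total RNA by a protocol for messages, and whether a feature read the mature microRNA or its precursor is not given in the sources used here. Mir378b lies within the span of Msi2, an RNA-binding protein gene, and Msi2 differed by 0.0075 ± 0.074 (adjusted p 0.987). Whether the 2 share a strand or a transcript was not tested.

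The last 3 higher genes encode signalling and scaffold proteins. Mapkapk5, a kinase downstream of MAP kinases, differed by 0.28 ± 0.050 (adjusted p 0.0369), Plcd3, a phospholipase C, by 0.24 ± 0.045 (adjusted p 0.0394) and Mpp2, a membrane-associated scaffold, by 0.23 ± 0.047 (adjusted p 0.0487). In all 3 the lowest ZT11 heart was above the highest ZT07 heart.

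All 29 lower genes were protein-coding; they are described by what their products are known to do, and this order is no test of a group. Cul3, the scaffold of a family of ubiquitin ligases, had -0.00016, 0.22, 0.18 and 0.26 at ZT07 and -0.26, -0.26, -0.15 and -0.10 at ZT11. It fell by 0.36 ± 0.070 (adjusted p 0.0473 in limma). Usp15, an enzyme that removes ubiquitin, fell by 0.24 ± 0.048 (adjusted p 0.0487); its groups overlapped, since ZT07 replicate 1 was at -0.067 and ZT11 replicate 4 at -0.062. Naa15, the ribosome-anchoring subunit of the main N-terminal acetyltransferase, had 0.036, 0.034, 0.31 and 0.33 and -0.32, -0.29, -0.10 and -0.042 and a difference of -0.37 ± 0.070 (adjusted p 0.0438). Ppp6c, the catalytic subunit of protein phosphatase 6, had 0.14, 0.24, 0.23 and 0.32 at ZT07 and -0.29, -0.18, -0.29 and -0.19 at ZT11. Both groups of Ppp6c were narrow, and the difference was -0.47 ± 0.092 (adjusted p 0.0473).

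In the separate list of proteasome subunits and ubiquitin genes 0 of 31 were called, with 3 higher and 4 lower at an unadjusted p under 0.05 (against 4.04% of all genes higher and 7.18% lower) and a median of -0.05. Psma1, a subunit of the proteasome core, was nearest to passing at -0.36 ± 0.083 (adjusted p 0.0591), and Psmb3, another core subunit, lay at 0.31 ± 0.088 (adjusted p 0.129), on the other side of 0.

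The largest fall was that of Uri1, a prefoldin-like protein that binds a subunit of RNA polymerases. Its hearts were at 0.28, 0.28, 0.10 and 0.0078 at ZT07 and -0.73, -0.39, -0.19 and -0.074 at ZT11. The 4 ZT11 hearts were far apart, and the lowest, replicate 1, was well below the rest. The mean went from 0.17 ± 0.14 (SD, n = 4) to -0.34 ± 0.29 (SD, n = 4), a difference of -0.51 ± 0.10 (adjusted p 0.0473). Cibar1, a BAR-domain protein linked to cilia, fell by nearly as much with far narrower groups: 0.12, 0.23, 0.15 and 0.23 at ZT07 and -0.31, -0.27, -0.31 and -0.27 at ZT11. That difference was -0.47 ± 0.10 (adjusted p 0.0496).

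Several mitochondrial genes also fell, so the step did not move mitochondrial genes in 1 direction. Apool, a member of the complex that shapes the cristae of the inner membrane, had 0.035, 0.24, 0.38 and 0.28 at ZT07 and -0.23, -0.28, -0.22 and -0.15 at ZT11. It fell by 0.46 ± 0.091 (adjusted p 0.0473). Ndufaf1, an assembly factor of complex I, fell by 0.33 ± 0.065 (adjusted p 0.0473), while the complex I subunit Ndufa2 rose. Vdac2, a channel of the outer membrane, had 0.10, 0.15, 0.15 and 0.21 and -0.14, -0.16, -0.14 and -0.077, and the 2 groups were narrow and apart. The difference was -0.28 ± 0.055 (adjusted p 0.0473). Pnpla8, a phospholipase of mitochondria and peroxisomes, fell by 0.24 ± 0.049 (adjusted p 0.0496) with overlapping groups. 2 enzymes of peroxisomes were lower too: Crot, a carnitine acyltransferase, by 0.30 ± 0.058 (adjusted p 0.045), and Nudt19, a hydrolase of coenzyme A, by 0.27 ± 0.049 (adjusted p 0.0394). Gbe1, the branching enzyme of glycogen synthesis, differed by -0.24 ± 0.050 (adjusted p 0.0496).

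Trappc2, a subunit of a complex that tethers vesicles between endoplasmic reticulum and Golgi, had 0.13, 0.070, 0.10 and 0.36 at ZT07 and -0.19, -0.16, -0.23 and -0.17 at ZT11, with ZT07 replicate 4 above the rest of its group. It differed by -0.35 ± 0.059 (adjusted p 0.0369). Snx2, a sorting nexin of endosomes, Kpna3, an importin that carries cargo into the nucleus, and Selenot, a selenoprotein of the endoplasmic reticulum, fell by 0.28, 0.28 and 0.27. The transporters Slc30a9, of the zinc transporter family, and Nipa2, of magnesium, fell by 0.27 and 0.24. Adjusted p-values of these 5 lay between 0.0369 (Slc30a9) and 0.0496 (Selenot), and in each the highest ZT11 heart was below the lowest ZT07 heart.

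2 zinc finger proteins were among the larger falls. Zfp933 had 0.18, 0.028, 0.41 and 0.44 at ZT07 and -0.36, -0.39, -0.075 and -0.073 at ZT11, a difference of -0.49 ± 0.10 (adjusted p 0.0492). Zbtb41 had 0.15, -0.0070, 0.090 and 0.082 and -0.49, -0.26, -0.30 and -0.13, a difference of -0.37 ± 0.071 (adjusted p 0.0429). Among all 336 genes whose symbols begin with Zfp, a list drawn up after seeing these values, 1 was called; 37 were lower and 9 higher at an unadjusted p under 0.05, which compares with 7.18% of all genes lower and 4.04% higher, and the median was -0.02.

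Receptors and immune genes were few. Gpr65, a proton-sensing receptor of immune cells, had 0.24, 0.20, 0.080 and 0.052 at ZT07 and -0.20, -0.25, -0.26 and -0.20 at ZT11, with narrow ZT11 values. It differed by -0.37 ± 0.067 (adjusted p 0.0369). Nlrp10, of the NOD-like receptor family, differed by -0.43 ± 0.076 (adjusted p 0.0369). Among 10 macrophage markers 0 were called; 2 were lower at an unadjusted p under 0.05 (7.18% over all genes), 8 differences were below 0, and the summed list had means of -0.03 to 0.11 in the ZT07 hearts and -0.12 to 0.05 in the ZT11 hearts. Whether that shift bears on Gpr65 was not tested.

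The remaining 6 lower genes fell by 0.21 to 0.34. They were Arhgap20 (-0.34), Shld2, of the shieldin complex of DNA repair (-0.34), Csgalnact2, of chondroitin sulphate synthesis (-0.33), Ccng1, a cyclin induced by p53 (-0.29), Mamld1 (-0.27) and Ythdc2, an RNA helicase that reads N6-methyladenosine (-0.21). Their adjusted p-values lay between 0.0369 and 0.0496.

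**Figure D3:**
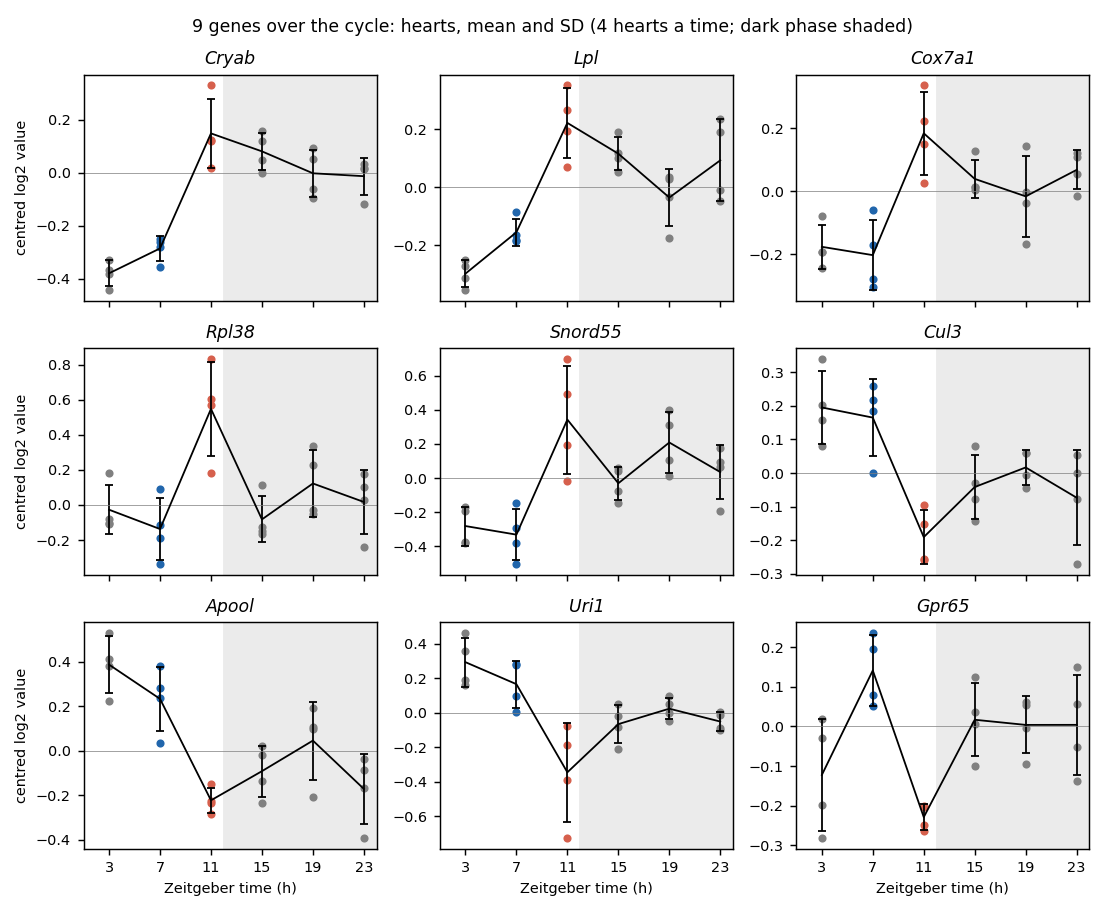
Centred log2 values over Zeitgeber time in hours for 9 named genes, with each heart as a point, the mean of 4 hearts joined by lines, and bars of 1 SD; ZT07 is blue, ZT11 red and the dark phase shaded. Cryab and Lpl are low at ZT03 and ZT07 and higher from ZT11 on, while Rpl38 has its highest mean, and Cul3, Apool, Uri1 and Gpr65 their lowest, at ZT11.

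Over the whole cycle, all 14 higher genes had their highest mean at ZT11, and 25 of the 29 lower genes had their lowest mean there. The other 4 were lowest at ZT15 (Csgalnact2 and Shld2) or at ZT23 (Arhgap20 and Nudt19). 13 of the 14 higher genes had their lowest mean at ZT03 or ZT07, and all 29 lower genes had their highest mean at one of these times. Because the genes were chosen for a large difference between ZT07 and ZT11, an extreme at either time is part of how they were chosen.

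The time points 4 h on either side, ZT03 and ZT15, used 8 hearts that gave no value to the step. In ZT15 minus ZT03, 239 genes passed (1.08%), 44 higher (0.198%) and 195 lower (0.879%). Of the 43 genes of the step, 8 passed there too in the same direction, which is 18.6% of the 43 and 3.35% of the 239. These were Cryab (0.46, adjusted p 0.00152) and Lpl (0.41, 0.00597) among the higher genes, and Apool (-0.48, 0.0186), Arhgap20, Kpna3, Nipa2, Shld2 and Vdac2 among the lower. The sign was the same for 40 of the 43, 12 of 14 higher and 28 of 29 lower, against 61.5% of all genes. Clpp (-0.044), Rpl38 (-0.055) and Gpr65 (0.14) had the opposite sign, with adjusted p-values of 0.821, 0.905 and 0.386. Both comparisons took their spread from 1 fit of all hearts. The count of 239 fell to between 25 and 106 without any 1 of ZT03 replicates 1, 2 and 3 and ZT15 replicates 2, 3 and 4, and was 182 without ZT03 replicate 4 and 281 without ZT15 replicate 1.

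**Figure D4:**
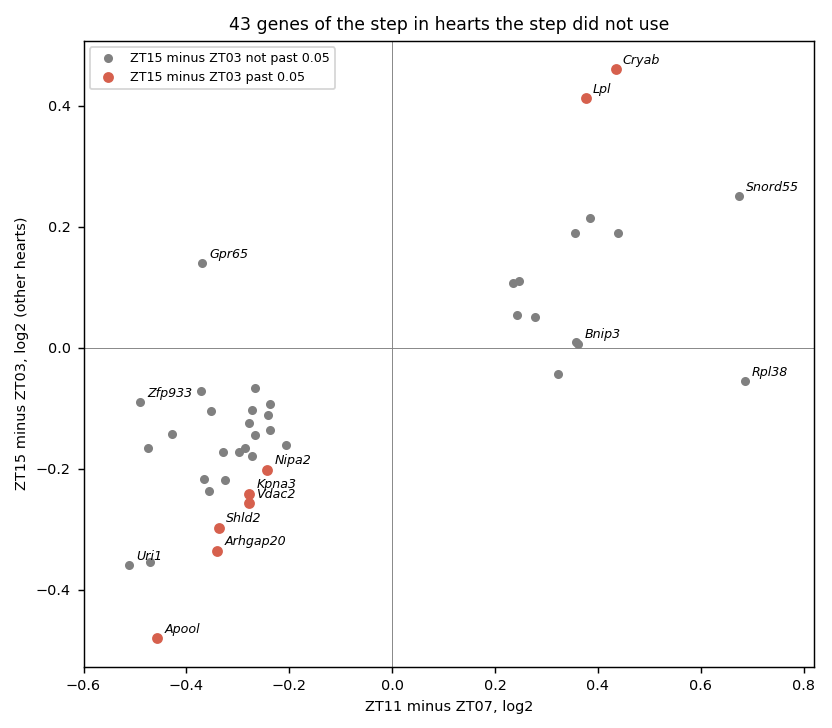
Each point is 1 of the 43 genes, with its ZT11 minus ZT07 difference on the horizontal axis and its ZT15 minus ZT03 difference, from other hearts, on the vertical axis, both in log2. Red marks the 8 genes that passed in both; 40 of the 43 have the same sign on both axes.

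The last 4 h of the dark phase, ZT19 to ZT23, share no heart with the late light step and allow a test of the difference between them. No gene passed that test in limma, while 1411 genes (6.36%) had an unadjusted p under 0.05. The smallest adjusted p, 0.0755, belonged to Slc19a2, a thiamine transporter, and Slc24a3, a sodium, potassium and calcium exchanger, both named after their values were seen. Slc19a2 differed by 0.17 in late light and -0.27 in late dark, and Slc24a3 by 0.10 and -0.25. These 2 genes passed when ZT07 replicate 3 was left out. Cryab changed by 0.43 in late light and -0.011 in late dark, a difference of 0.45 ± 0.080 with an adjusted p of 0.121. The 43 genes are therefore not shown to behave otherwise in late light than in late dark.

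Of 21 core clock genes listed, 19 were measured and 0 were called between ZT07 and ZT11. At an unadjusted p under 0.05, 2 were higher, Nfil3 and Ciart, and 1 was lower, Clock, against 4.04% of all genes higher and 7.18% lower. Per1, a repressor that also responds to hormones, had -0.20, 0.18, 0.42 and 0.48 at ZT07 and 0.48, 0.61, 0.39 and 0.76 at ZT11. Its groups overlapped and its difference of 0.34 ± 0.18 had an adjusted p of 0.495. Nfil3, a repressor of PAR bZIP targets, had -0.16, -0.33, -0.22 and -0.42 and -0.024, -0.12, -0.049 and 0.012, without overlap, and a difference of 0.24 ± 0.080 (adjusted p 0.205). Arntl had 0.069, -0.17, 0.054 and -0.12 and -0.38, -0.35, -0.42 and -0.21, all 4 ZT11 hearts below the ZT07 hearts, and a difference of -0.30 ± 0.15 (adjusted p 0.471). The SE also takes in the spread at the other time points. There, ZT19 replicate 2 stood at -0.83 for Arntl, against -0.33 to 0.24 in the other ZT19 hearts. It was at 0.93 for Per3 (others -0.010 to 0.23) and 0.62 for Dbp (others -0.086 to 0.028). For Nfil3 and Ciart it lay within the range of the others. The SD of Arntl was 0.46 at ZT19, 0.12 at ZT07 and 0.091 at ZT11. The count of 0 holds for a fit that includes ZT19 replicate 2.

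Clock itself stood at -0.11, 0.13, -0.0084 and 0.17 at ZT07 and -0.30, -0.19, -0.24 and -0.18 at ZT11. The groups did not overlap, and the difference was -0.27 ± 0.093 with an adjusted p of 0.213; it passed, at 0.036, when ZT19 replicate 2 was left out of the fit. Where its feature lies relative to the exon whose part the mutant protein lacks is not stated in the sources used here. The value therefore checks nothing about the mutation. Dbp, an output regulator of the clock, differed by 0.15 ± 0.12 (adjusted p 0.688), and Nr1d1, which encodes REV-ERB alpha, by -0.16 ± 0.13 (adjusted p 0.732). The other 13 measured clock genes lay between -0.09 and 0.08.

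**Figure D5:**
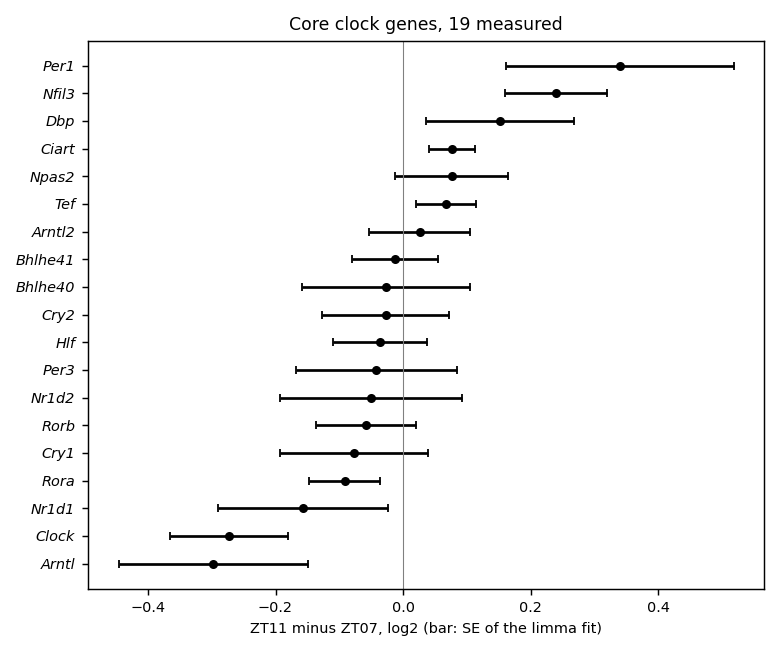
Points give ZT11 minus ZT07 in log2 and bars 1 SE of the limma fit for the 19 measured core clock genes. Per1 lies highest at 0.34 and Arntl lowest at -0.30; 0 of the 19 passed an adjusted p of 0.05.

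Among the remaining pathway lists no gene was called. In the glucocorticoid response list, 17 of 23 differences were above 0 (11276 of 22180 over all genes) with a median of 0.09, and 4 members were higher and 1 lower at an unadjusted p under 0.05, against 4.04% of all genes higher and 7.18% lower. Tsc22d3 (GILZ), a target of the glucocorticoid receptor, had -0.22, -0.19, -0.011 and -0.0056 at ZT07 and 0.26, 0.29, 0.19 and 0.051 at ZT11 and differed by 0.31 ± 0.090 (adjusted p 0.136). Sgk1, a kinase induced by the same hormones, differed by 0.35 ± 0.11 (adjusted p 0.177). The groups did not overlap for either gene.

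In the list of splicing factors 22 of 27 differences were below 0, with a median of -0.09, and 5 were lower and 0 higher at an unadjusted p under 0.05, against 7.18% of all genes lower and 4.04% higher. The mean of this list was -0.20 in ZT11 replicate 1 and between -0.08 and 0.04 in the other ZT11 hearts. Hnrnpd, an RNA-binding protein, differed by -0.20 ± 0.050 (adjusted p 0.0755), through 1 of its 2 features (-0.39 and -0.01), and Srsf10 by -0.38 ± 0.14 (adjusted p 0.268) with overlapping groups.

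Antioxidant genes were divided. Prdx3, the peroxiredoxin of mitochondria, had 0.12, 0.13, 0.16 and 0.067 at ZT07 and -0.22, -0.11, -0.10 and -0.079 at ZT11, and its difference of -0.25 ± 0.062 had an adjusted p of 0.0798. Gstp1, a glutathione transferase, differed by 0.38 ± 0.12 (adjusted p 0.182). Of 27 measured, 2 were higher and 3 lower at an unadjusted p under 0.05 (against 4.04% of all genes higher and 7.18% lower). In the endoplasmic reticulum list of 23, Herpud1, a part of the degradation machinery, differed by 0.35 ± 0.12 (adjusted p 0.213) and the co-chaperone Dnajb9 by -0.30 ± 0.13 (adjusted p 0.362), in opposite directions.

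No contractile or electrical gene of the lists passed. The counts that follow stand against 4.04% of all genes higher and 7.18% lower at an unadjusted p under 0.05. Of 30 sarcomere and Z-disc genes, 5 were higher and 1 lower at an unadjusted p under 0.05, and Myl3, a ventricular myosin light chain, lay at 0.32 ± 0.092 (adjusted p 0.135). Of 21 genes of calcium handling and depolarising currents, 1 was higher and 3 lower, and Slc8a1, the sodium and calcium exchanger, lay at -0.18 ± 0.047 (adjusted p 0.0937) without overlap. Of 16 potassium channel genes 0 were higher and 3 lower, with Kcnj2, of the inward rectifier current, at -0.25 ± 0.10 (adjusted p 0.306). At the same unadjusted threshold, the list of FoxO and insulin signalling had 1 higher and 3 lower of 25 (Eif4ebp1, a brake on translation, 0.28) and the immediate early list 1 higher and 0 lower of 25 (Klf6, 0.25). The interferon-induced list had 0 and 1 of 21 (Irf9, -0.22), extracellular matrix 3 and 3 of 26 (Sparc, 0.21), sterol synthesis 0 and 3 of 18 (Hmgcs1, -0.21) and the natriuretic and angiotensin list 0 and 0 of 12.

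None of the 15 lists of cell type markers held a called gene. The medians lay between -0.11 (macrophage) and 0.10 (atrial). The atrial markers were high in ZT07 replicate 2 (list mean 0.43) and ZT11 replicate 2 (0.46), 1 heart of each group, against -0.28 to 0.02 in the other 6. Fibroblast markers had a median of -0.09, with list means of -0.04 to 0.15 at ZT07 and -0.11 to 0.07 at ZT11. Of 10 cardiomyocyte markers, 4 were higher and 0 lower at an unadjusted p under 0.05, against 4.04% of all genes higher and 7.18% lower, with a median of 0.03.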

How the data were processed

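Hearts of 24 male Clock delta 19/delta 19 mice, 4 at each of 6 time points, were read on single-colour Affymetrix arrays from 500 ng of total RNA, per the labels' protocols. The deposited table holds values on a log scale, taken as log2, which the authors had centred so that each of the 34351 features has a median of 0 over the 24 arrays (largest absolute median 5e-07). Summarization, normalization, log base, tools and genome build are not given in the sources used here. Centred values keep no level, so no filter on low values could be set, and signal over background is unknown.

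Of the features, 23521 had 1 gene symbol in the platform annotation, 1814 several and 9016 none; 23328 matched RefSeq by Entrez ID, and 0 symbols differed. Features with 1 symbol were averaged per gene, which left 22180 genes, 1082 of them with over 1 feature. A limma 3.58.1 fit (R 4.3.3) of 6 time-point means over all 24 hearts gave ZT11 minus ZT07, ZT15 minus ZT03, and the late light minus the late dark step, each with Benjamini-Hochberg adjustment at 0.05. The 16 hearts of other times entered only the estimate of the spread. The labels call the samples biological replicates, and their number, 4 per time point, limits the precision. The largest correlation between 2 arrays, over centred values, was 0.358, so no array was a copy of another. Whether 2 arrays came from 1 animal cannot be read from centred values.

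The named genes were the 12 largest rises and 12 largest falls past the threshold, the 6 smallest p-values, the called members and the 2 smallest p-values of each pathway list, and all measured core clock genes. The other called genes, Hspb1, Msi2, Slc19a2 and Slc24a3, and the lists of ribosomal proteins, small nucleolar RNAs and Zfp genes were added after their values were seen. The members and lists were chosen with earlier results of these data known. The 8 to 16 class of a feature was read from number spacing: differences between its arrays had to lie within 1e-07 of multiples of the single-precision step of that range. A first run used 1e-07 over all values (595 features). After its result was seen, 2 further versions were run, 2e-07 (608 features) and only values within 0.1 of the median for features with 15 or more such values (290 features). Alternatives covered the hearts in the fit, a block, the normalization, the value per gene, the variance estimate, array weights and each heart left out. The scripts were tested on simulated data.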

Additional observations from a re-analysis of the deposited data

Results flagged for a closer look

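In 7 of the 200 groups of 4 hearts behind the named genes, 1 heart lay far from the other 3 by Dixon's criterion at 95%; about 10 would be found by chance at 1 in 20. Bnip3 at ZT11 stood at 0.38 in replicate 2 and at 0.20 to 0.22 in the others. Ndufa2 at ZT07 stood at 0.027 in replicate 1 and at -0.18 to -0.16 in the others. Ccng1 at ZT11 was -0.28 in replicate 1 and -0.15 to -0.13 in the others. These 3 genes passed the test of the step.

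The other 4 groups belong to genes that did not pass. Casq2, a calcium-binding protein of the sarcoplasmic reticulum, stood at -0.23 in ZT11 replicate 1 against -0.069 to -0.046. Rorb, a nuclear receptor of the clock list, was -0.11 in ZT11 replicate 1 against -0.0042 to 0.016. Arntl2, a paralogue of Arntl, was -0.069 in ZT11 replicate 2 against 0.11 to 0.12. Agtr1a, an angiotensin receptor, was 0.041 in ZT07 replicate 1 against 0.23 to 0.26.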

How the results depend on the processing

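All 43 genes kept their direction in the 17 alternatives run for each. The alternatives reuse the hearts on which the genes were chosen, so this is a description. Over all named genes and alternatives, 1306 results kept their direction and their side of the threshold. That number includes genes that did not pass and stayed so. Only results of the 43 called genes could fall short of the threshold, and 370 did. Among the called genes, Cryab passed in 15 of the 17 alternatives, and Nop53, Pnpla8 and Selenot in 4. Another 9 results came to pass the threshold, and 15, of 9 genes that did not pass, changed sign. With every feature by itself the sign turned for Col6a1 (-0.034) and Hif1a (0.0010). With a heart left out in turn, values ranged across 0 for Msi2 (-0.018 to 0.032), Bhlhe40 (-0.094 to 0.052), Cry2 (-0.070 to 0.039), Hlf (-0.097 to 0.010), Arntl2 (-0.010 to 0.096), Bhlhe41 (-0.047 to 0.021) and Nr1d2 (-0.12 to 0.0065). The number of genes called for ZT11 minus ZT07, 43 with all hearts, was 2 in a fit of the 8 compared hearts alone. It was 22 with every feature of exactly 1 gene symbol tested by itself, 22 with robust variance estimates and 119 with array weights. With each heart of the 2 times left out in turn it ranged from 2 to 322, and it was 57 without ZT19 replicate 2. For ZT15 minus ZT03 the count of 239 became 107 with only the compared hearts and 430 with array weights, and ranged from 25 to 281 with a heart left out. For late light minus late dark the count of 0 became 1 with the replicate block (Snord55) and ranged from 0 to 2 with a heart left out. Causes were not tested, except that fits of fewer hearts have fewer samples.

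Same-numbered ZT07 and ZT11 hearts correlated at -0.0566 to 0.000351 over all genes in their deviations from the group means. Taken over all genes, these values showed no pairing by number, and pairing in single genes was not tested. With the replicate number as a block 40 genes passed for the step (16 higher, 24 lower; 29 of the 43) and 197 for ZT15 minus ZT03. Quantile normalization gave 62 genes, 20 higher and 42 lower. The medians of 2 lists moved by more than the spread of the list mean over hearts: sarcomere and Z-disc to 0.084 without ZT11 replicate 1, and B cell to 0.044 without ZT07 replicate 2. The tissue check by number spacing found 9, 9 and 7 of 10 cardiomyocyte markers in its 3 versions.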
